A study of Mus musculus with 20 samples.

Results

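Macrophages grown from mouse bone marrow were compared under 2 single adjuvant formulations, LP 3M and LP PIC. The comparison used the 5 LP 3M and the 5 LP PIC libraries, 10 of the 20 libraries of the series, chosen by their treatment labels and matched by the mouse number at the end of each title. All 12132 genes that passed a filter on low counts, of 24421 listed, were tested for the difference LP 3M minus LP PIC. The series title describes single and dual adjuvants formulated in lipoparticles, and LP was read as that particle. The labels do not spell out 3M or PIC, and they give no dose, strain, sex or age. Cells of each mouse (bone marrow-derived macrophages, BMDM) were grown in medium conditioned by the fibroblast line L929, a source of CSF-1, which macrophages need to grow, and received LP, LP PIC, LP 3M or LP 3M PIC for 48 h. Every group therefore carries the particle, and LP alone (5 libraries) gives the background level quoted below. RNA was poly(A)-enriched and sequenced in bulk, so that fewer cells of a type and less RNA per cell cannot be told apart.

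Macrophages detect microbial products and adjuvants through Toll-like receptors, cytosolic nucleic acid sensors and C-type lectins. Some of these receptors lead to type I interferon, which acts back on the cell through its receptor and a DNA element of the genes it induces, the interferon-stimulated response element (ISRE). Others lead mainly to NF-kB and MAP kinases, which drive cytokines such as interleukin 1, interleukin 6 and tumour necrosis factor, together with inhibitors that limit the same pathway. Proliferation of these cultured cells depends on CSF-1, and both interferon and inflammatory stimuli are known to slow it.

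In the main fit LP 3M and LP PIC differed in about as many genes in one direction as in the other. By the edgeR quasi-likelihood test with Benjamini-Hochberg adjustment over all tested genes, 5712 genes (47.1%) were called at an adjusted p under 0.05, 2959 (24.4%) higher in LP 3M and 2753 (22.7%) higher in LP PIC. Counts of calls in the gene lists below are to be read against these shares. Most called differences were small: the median size was 1.44-fold, and 76.6% were below 1 on the log2 scale. A difference of at least 1 on the log2 scale was called for 1334 genes (11.0%), 763 (6.29%) higher in LP 3M and 571 (4.71%) higher in LP PIC. At least 2 on that scale was reached by 288 genes in LP 3M and 181 in LP PIC. The 5 values of one group lay wholly above those of the other in 3774 tested genes (31.1%), with LP 3M on top in 2083 (17.2%) and LP PIC in 1691 (13.9%). Of the called genes, 2648 were higher in LP 3M and 2419 higher in LP PIC in 5 of 5 mice, and 645 were not uniform. This near-even split depended on how the libraries were scaled. The share of calls that were higher in LP 3M was 51.8%, and 41.6% when libraries were scaled by their plain totals. At the other end, the 95% interval of the difference lay within 1.5-fold in either direction for 6072 of the tested genes.

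**Figure D1:**
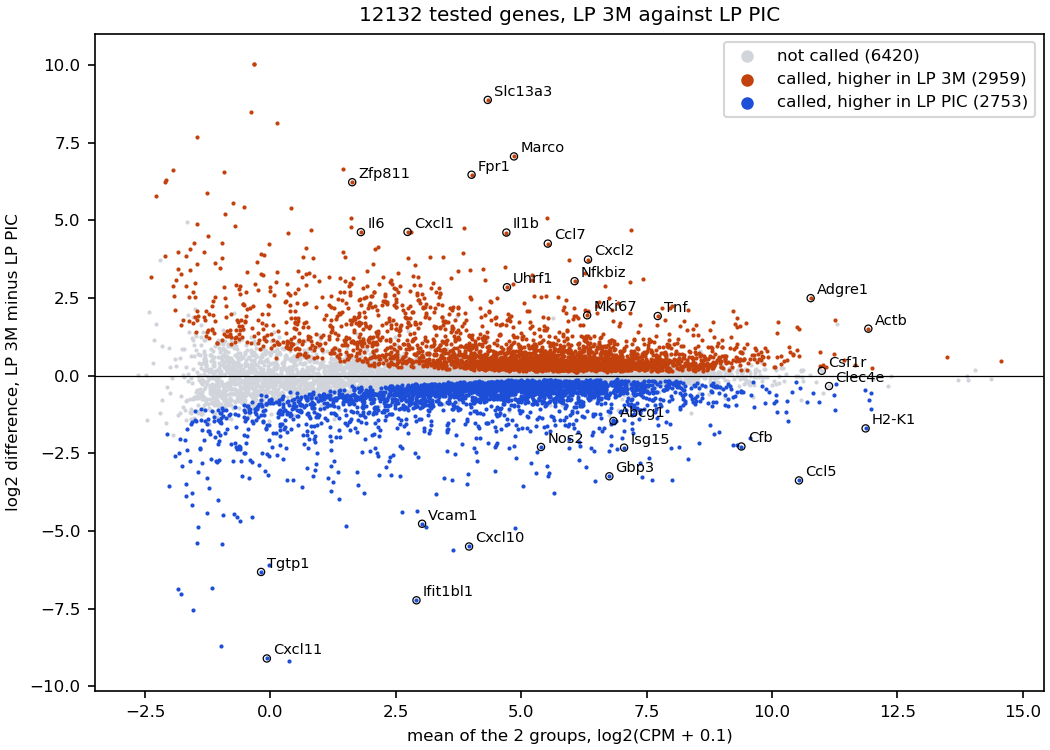
Each point is 1 of the 12132 tested genes. The horizontal axis gives the mean of both groups as log2(CPM + 0.1) and the vertical axis the log2 difference LP 3M minus LP PIC. Orange genes (2959) were called higher in LP 3M, blue genes (2753) higher in LP PIC and grey genes were not called, and circled genes are named. Chemokines such as Cxcl2 and Ccl7 stand above 0, and interferon-induced genes such as Cxcl10, Ifit1bl1 and Gbp3 stand below it.

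The formulation was the main difference among the 10 libraries. In a principal component analysis of the 1000 genes that varied most, 66.1% of the variance lay on component 1, which placed all 5 LP 3M libraries at values below 0 and all 5 LP PIC libraries above it. The second held 16.3% and separated mice 1 and 2 from mice 3 and 5 under both formulations.

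**Figure D2:**
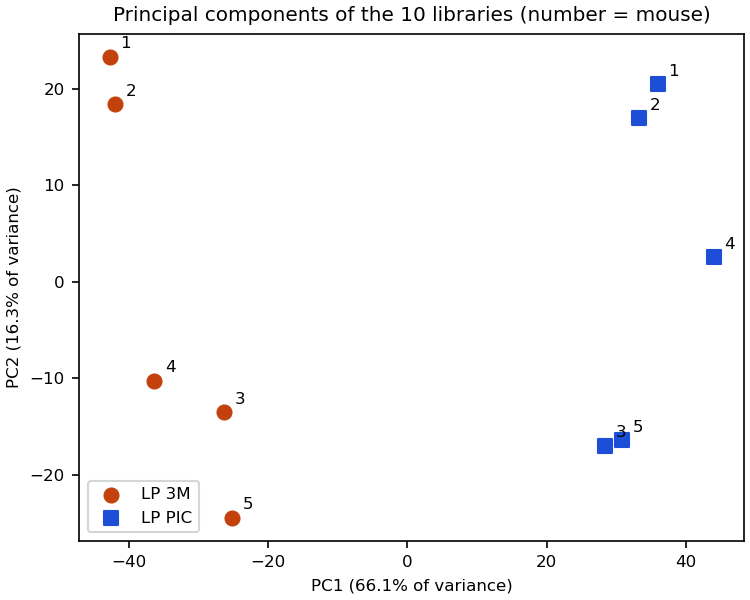
Principal components 1 (66.1% of variance) and 2 (16.3%) of the 10 libraries over 1000 genes, with the mouse number beside each point. Formulations separate along the first axis, and mice 1 and 2 lie above mice 3 and 5 along the second in both formulations.

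Libraries held 21902777 to 23874805 gene counts in LP 3M and 17357716 (mouse 5) to 23633443 in LP PIC, with 13901 to 14396 genes detected. All 10 macrophage markers were present, and their summed level was 21907 to 27601 CPM (counts scaled to a common library size) in LP 3M and 14240 to 20508 in LP PIC, most of it from Lyz2, Cd68 and Adgre1. Csf1r, the CSF-1 receptor that defines these cells, had a mean of 2148 ± 305 CPM in LP 3M and 1928 ± 201 in LP PIC (SD, n = 5), and was not called. The summed neutrophil list was higher in LP 3M (167 to 832 CPM against 96.7 to 194, exact two-sided permutation test p = 0.0159, adjusted p over 10 lists 0.0227, smallest possible p 0.00794). Its mean difference of 293 CPM fell to 189 CPM without mouse 1, and without mouse 1, 2 or 3 the exact permutation p was 0.0571. Most of that sum came from Lcn2, Csf3r and Mmp8, which macrophages also express. Of the other members, S100a8 averaged 9.07 CPM in LP 3M and 2.90 in LP PIC and Camp 0.879 and 0.431, whereas S100a9 (0.0796 and 0.295) and Ngp (0.0178 and 0.417) went the other way. Retnlg was at 0 in all 10 libraries and Elane, Mpo, Ltf and Cxcr2 averaged at most 0.0534 CPM in either group.

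The marker sums of 4 lists of other cell types did not overlap between the groups (exact unpaired permutation p = 0.00794, adjusted p = 0.0132 for each). The epithelial and endothelial list summed to 17.7 to 34.4 CPM in LP 3M and 45.7 to 107 in LP PIC. Nearly all of it came from Kdr (means 21.9 and 69.8). The means of Pecam1 (1.26 and 0.0882 CPM), Cdh5 (0.449 and 0.271) and Cdh1 (0.158 and 0.0891) went the other way. Epcam, Krt8 and Krt18 averaged at most 0.0179 CPM. The erythroid and platelet list summed to 25.9 to 293 CPM in LP 3M and 17.3 to 25.9 in LP PIC, so that the nearest values almost met, nearly all from Pf4, with 6 of its 9 genes at 0 in all 10 libraries, and its difference of 101 CPM was 59.1 CPM without mouse 1. The mast cell and basophil list summed to 0.335 to 1.51 CPM in LP 3M and 1.61 to 5.70 in LP PIC, nearly all from Kit, with Cpa3, Fcer1a and Tpsb2 at 0. The B-cell list summed to 0.349 to 1.05 CPM in LP 3M and at most 0.176 in LP PIC. Fibroblast markers overlapped, at 31.3 to 91.2 CPM in LP 3M and 24.9 to 74.3 in LP PIC, as did the T- and NK-cell list (at most 2.12 CPM) and the dendritic cell list (at most 1.41 CPM). Heat shock genes summed to 1657 to 1990 CPM in LP 3M and 1233 to 1404 in LP PIC, mostly from Hspa8 (means 1445 and 1064) and Hsp90aa1 (332 and 171). The means of Hspa1a (1.70 and 4.31 CPM) and Hspa1b (1.48 and 2.25) went the other way. Those of Dnajb1 (33.6 and 33.8) and Hsph1 (54.4 and 52.5) were close. The part of these cell types and genes in the results was not tested.

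The genes higher in LP PIC were led by those that interferon induces. Of the 50 tested interferon-stimulated antiviral genes 48 were called higher in LP PIC and none higher in LP 3M, against 22.7% and 24.4% of all tested genes. Their median log2 difference was -1.42, against -0.01 over all tested genes. Set against LP, the same 50 genes had a median of 1.69 in LP PIC and 0.37 in LP 3M, both measured against the same 5 LP libraries. The sequences upstream of such genes are shown first because an ISRE is the element that many of them share. In the 250 bases before each RefSeq start site (GRCm38.p6), the letters GAAA, any 2 bases and GAAA again, searched on both strands, occurred in 2.98% of all 32851 windows and in 3.40% of the 9292 tested genes with a window. Among genes called higher in LP PIC by at least 2 on the log2 scale they occurred in 27 of 117 (23.1%), and among those higher in LP 3M by as much in 9 of 216 (4.17%). Of the antiviral genes 16 of 38 with a window held them, and of the interferon-inducible GTPases 9 of 11. A match describes these letters only. The window of Cxcl10 (chr5:92348890-92349139, minus strand), a T-cell-attracting chemokine gene, is printed 5′ to 3′ with its single match in capitals, from base -213 to -204 relative to the start site.
Cxcl10: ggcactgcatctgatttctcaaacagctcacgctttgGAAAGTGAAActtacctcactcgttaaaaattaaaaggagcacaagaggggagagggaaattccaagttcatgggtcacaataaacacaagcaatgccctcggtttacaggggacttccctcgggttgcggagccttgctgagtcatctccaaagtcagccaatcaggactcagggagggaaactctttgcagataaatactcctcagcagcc

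The matches in the GTPase genes are set out below with up to 10 bases on each side within the window. The search fixed all letters of a match but the 2 in its middle. Likeness of the capitals between genes therefore follows from the search, and only those 2 bases and the flanks were free to differ. Those read as TTTC, 2 bases and TTTC lie on the opposite strand. Gbp2, Gbp3, Gbp5 and Gbp7 are neighbours on chromosome 3 and Irgm1, Irgm2, Igtp, Tgtp1 and Tgtp2 lie on chromosome 11. Gbp3 and Irgm1 each hold a second match that overlaps the printed one and is not in capitals. The printed match is the one farther from the start site in Gbp3 and the nearer one in Irgm1. Irf2, an interferon regulatory factor that was also higher in LP PIC, is added.
Gbp2: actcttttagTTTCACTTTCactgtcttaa
Gbp3: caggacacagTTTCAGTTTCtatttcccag
Gbp5: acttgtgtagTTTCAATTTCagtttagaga
Gbp7: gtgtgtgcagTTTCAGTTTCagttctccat
Irgm1: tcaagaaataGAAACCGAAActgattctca
Irgm2: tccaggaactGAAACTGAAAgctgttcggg
Igtp: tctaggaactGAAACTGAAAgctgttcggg
Tgtp1: tccaggaatcGAAACTGAAAcctacctgac
Tgtp2: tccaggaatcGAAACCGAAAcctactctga
Irf2: tggggaagtGAAAATGAAAttgacttttc

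Interferon mRNA was detected at a low level, and among the 10 libraries in those of LP PIC. Ifnb1, which encodes interferon beta, was at 1.17, 1.56, 0.777, 1.64 and 0.228 CPM in mice 1 to 5 under LP PIC and had no count in any LP 3M library. It was at least 40.9-fold higher in LP PIC, taking a floor of 3 counts over the 5 LP 3M libraries (edgeR adjusted p = 8.98e-05). The other interferon genes on the list did not pass the filter. Among the receptors, Ifnar1, a subunit of the type I interferon receptor, was 1.29-fold higher in LP 3M (225 ± 12.8 against 174 ± 9.67 CPM, edgeR adjusted p = 0.00486). Irf1, a transcription factor that interferon induces, was at 205, 163, 143, 276 and 117 CPM in LP PIC and at 44.3, 36.6, 73.4, 49.6 and 56.7 in LP 3M, with no overlap (log2 difference -1.79 ± 0.27 SE, edgeR adjusted p = 3.49e-05). Irf2 stood at 65.5 ± 8.05 CPM in LP PIC and 39.9 ± 2.94 in LP 3M. Batf2, which partners with such factors in macrophages, was 3.5-fold higher in LP PIC. Of the 16 tested regulators and receptors 6 were called higher in LP PIC and 2 in LP 3M (1 without mouse 1, 2, 3 or LP PIC mouse 5), while Irf3, Irf5 and Irf8 were among the 8 that were not called. The share called, 50%, was near the 47.1% of all tested genes.

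Antiviral effectors separated the formulations in every mouse, but by less in mouse 3. Ifit1, which binds foreign RNA caps, was at 565, 483, 326, 756 and 215 CPM in mice 1 to 5 under LP PIC and at 51.0, 35.0, 165, 93.5 and 25.3 CPM under LP 3M. No LP 3M value reached the lowest LP PIC value, and the log2 difference was -2.67 ± 0.57 (SE, edgeR adjusted p = 0.000946). Isg15, a ubiquitin-like modifier, was at 310, 228, 206, 570 and 164 CPM under LP PIC and at 45, 26.5, 127, 78.8 and 19.7 under LP 3M (-2.32 ± 0.53, edgeR adjusted p = 0.0016). In both genes mouse 3 had the highest LP 3M level and mouse 4 the highest LP PIC level. Irf7, which amplifies interferon production, was 4.65-fold and Mx1, an antiviral GTPase, 5.47-fold higher in LP PIC. Without mouse 3 the log2 differences of Ifit1, Isg15, Irf7 and Mx1 became -3.31, -2.91, -2.81 and -3.06. Trim25, a ubiquitin ligase of the RNA-sensing pathway, had the smallest p of the list (489 ± 52.0 CPM in LP PIC, 258 ± 26.6 in LP 3M, edgeR adjusted p = 4.28e-07). Eif2ak2 and Helz2 were the 2 antiviral genes that were not called.

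The interferon-inducible GTPases, which attack the vacuoles of intracellular microbes, had the lowest median of the lists with at least 3 tested members. Of 17 tested members 16 were called higher in LP PIC and none in LP 3M, with a median log2 difference of -2.66. Against LP their median was 3.54 in LP PIC and 0.35 in LP 3M. Gbp3 (chromosome 3, 142560026 to 142573209, plus strand) was at 390, 356, 213, 529 and 170 CPM in LP PIC and at 26.9, 19.5, 70.4, 40.7 and 18.1 CPM in LP 3M, against an LP mean of 16.9 CPM. Every LP PIC value lay above every LP 3M value, and the difference was -3.24 ± 0.41 (SE, edgeR adjusted p = 6.56e-06). Gbp5, which promotes inflammasome assembly, was 9.27-fold higher in LP PIC. Iigp1, an immunity-related GTPase, was at 33.1 ± 29.6 CPM in LP PIC and 1.62 ± 0.781 in LP 3M. Gbp4, at 44.6 ± 28.1 CPM in LP PIC and 1.53 ± 1.45 in LP 3M, overlaps Gbp8 and Gbp9 on the same strand. Reads shared by several genes were left out of the counts, so the levels of these genes are uncertain. Tgtp1 and Tgtp2 are near-identical copies, and their separate counts are uncertain too. Gbp2b and Gbp10 fell below the filter. Without mouse 3, the log2 difference of Gbp5 went from -3.22 to -3.88 and that of Gbp4 from -4.87 to -5.79.

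Some of the largest differences in LP PIC's favour were in genes with a low level in LP 3M. Ifit1bl1, a member of the Ifit cluster on chromosome 19, was at 141, 75.9, 24.3, 175 and 8.44 CPM in LP PIC and between 0.222 and 1.65 CPM in LP 3M (-7.23 ± 0.93, edgeR adjusted p = 7.17e-06). Its LP mean was 0.487 CPM. Slfn1, a Schlafen family gene linked to growth control, was at 94.5, 51.2, 19.3, 227 and 36.3 CPM in LP PIC and between 0.610 and 2.94 CPM in LP 3M. Krt16, a keratin gene of stratified epithelia (chromosome 11, 100246091 to 100248902), had 1602 counts in LP PIC and 2 in LP 3M. The ratio of its pooled CPM was 786, with a counting interval from 217 to 6497, and Krt16 was at 0 in LP. Iglon5, a cell adhesion gene best known from neurons, was at 10.8 ± 2.47 CPM in LP PIC and 0.935 ± 0.205 in LP 3M. Ms4a4c and the apolipoprotein genes Apol9a and Apol9b, which interferon also induces, were 29.6-, 28.9- and 21-fold higher in LP PIC. Without mouse 3 their log2 differences went from -4.89, -4.85 and -4.40 to -5.56, -5.62 and -4.99, and that of Ifit1bl1 to -8.38. Without mouse 4 that of Krt16 went from -9.18 to -10.64.

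Genes of MHC class I and class II, whose products present antigen to T cells, were higher in LP PIC. All 20 tested genes of MHC class I and peptide loading were called higher in LP PIC, with a median of -1.17, and 11 of 12 tested class II genes, with a median of -1.86. Against LP the class I median was 1.63 in LP PIC and 0.28 in LP 3M, and the class II median 2.60 and 0.72. H2-K1, a classical class I heavy chain on chromosome 17, was at 7384, 6713, 5814, 7722 and 5956 CPM in LP PIC and at 1854, 1603, 2929, 2151 and 1814 CPM in LP 3M. The groups lay apart, against an LP mean of 1584 CPM (-1.70 ± 0.19, edgeR adjusted p = 1.62e-06). B2m, the class I light chain, was 2.09-fold higher in LP PIC, and its highest LP 3M value was again that of mouse 3. H2-Q4 was 6.47-fold higher in LP PIC, but the class Ib genes have close paralogs, of which H2-Q6, H2-Q7, H2-Q10 and H2-T22 fell below the filter. Ciita, the master regulator of class II transcription, was at 36.5, 37.4, 35.9, 39.8 and 22.1 CPM in LP PIC and at 6.74, 5.68, 15.2, 8.92 and 6.03 CPM in LP 3M (-2.01 ± 0.47, edgeR adjusted p = 0.00179). H2-Ab1, a class II beta chain, was at 792 ± 90.0 and 175 ± 62.2 CPM. Ctss, the protease that trims the class II invariant chain, was 1.71-fold higher in LP PIC. H2-Ob was the class II gene that was not called.

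Costimulatory genes were split, with more calls toward LP PIC. Of 18 tested costimulation and checkpoint genes 9 were called higher in LP PIC, 2 higher in LP 3M (1 without mouse 1, 3, 4 or LP PIC mouse 5) and 7 not called (median -0.48). Cd86, the ligand of CD28, was at 61.8, 55.4, 54.2, 51.8 and 35.9 CPM in LP PIC and at 15.5, 19.0, 22.8, 15.1 and 13.4 CPM in LP 3M. The groups did not overlap, and the difference was -1.60 ± 0.22 (edgeR adjusted p = 1.16e-05). Cd80, the other CD28 ligand, was at 11.5 ± 3.30 and 8.52 ± 0.962 CPM and was not called (edgeR adjusted p = 0.0745). With the mouse as a replicate block its adjusted p was 0.0114. Tnfsf4 (OX40 ligand) was 10.3-fold and Tnfrsf9 (4-1BB) 6.69-fold higher in LP PIC. Cd40 and Cd274, which encodes PD-L1, were 2.26- and 1.65-fold higher in LP PIC with overlapping groups, and both calls were lost without mouse 4 (adjusted p = 0.12 and 0.079). Cd48, a ligand of T and NK cells, was 1.45-fold higher in LP 3M with no overlap.

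The lists of T-cell-attracting and neutrophil-attracting chemokines went apart. Of 8 tested T-cell-attracting chemokines 5 were called higher in LP PIC and none in LP 3M (median -2.05). With the mouse as a replicate block over the 20 libraries 1 was higher in LP 3M. On the neutrophil-attracting list 4 of 5 were higher in LP 3M and none in LP PIC (median 3.41). The 4 were Cxcl1, Cxcl2, Cxcl3 and Pf4, which is also on the platelet list, and Cxcl5 was not called. Cxcl10 (chromosome 5, 92346638 to 92348889), whose upstream window is printed above, was at 120, 84.9, 64.3, 201 and 41.0 CPM in LP PIC and at 1.95, 1.17, 4.00, 2.90 and 1.31 CPM in LP 3M. Even the lowest LP PIC library was above the highest LP 3M library, and the difference was -5.50 ± 0.48 (SE, edgeR adjusted p = 2.04e-07). Cxcl11, which binds the same receptor, had 953 counts in LP PIC and 1 in LP 3M, a ratio of pooled CPM of 935 with a counting interval from 167 to 36984. Both genes lie in opposite orientation to Art3, and the strand setting of the counting is not given in the sources used here. Cxcl9, the third of that family, had 60 and 20 counts and was not called (edgeR adjusted p = 0.232, and 0.0162 without mouse 3). Ccl5, which attracts T cells and monocytes, was at 5161, 4106, 3642, 7645 and 3335 CPM in LP PIC and at 313, 232, 970, 553 and 239 CPM in LP 3M (-3.37 ± 0.54, edgeR adjusted p = 6.31e-05). Ccl22, a ligand of CCR4, was 6.13-fold higher in LP PIC.

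The neutrophil-attracting Cxcl1, Cxcl2 and Cxcl3 lie close together on chromosome 5 and share a sequence just upstream of their start sites. The kappaB letters GGGA, any 2 bases and TTCC, searched on both strands, occurred in 1.21% of all windows, in 1.53% of those of tested genes and in 3 of the 4 neutrophil-chemokine windows. They were no more frequent in genes higher in LP 3M by at least 2 (3.24%, 7 of 216) than in those higher in LP PIC by as much (5.13%, 6 of 117). The 3 chemokine sites are printed with 10 bases on each side. In each, a second match on the opposite strand overlaps the first by all but 1 base. The sites of Birc5 and Pgk1, genes of mitosis and glycolysis that were also higher in LP 3M, follow for comparison, that of Pgk1 on the opposite strand. The whole window of Cxcl1 (chr5:90890995-90891244, plus strand) comes last, with both overlapping matches in capitals.
Cxcl1: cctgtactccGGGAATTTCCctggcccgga
Cxcl2: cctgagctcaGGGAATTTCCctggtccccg
Cxcl3: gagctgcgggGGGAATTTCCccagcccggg
Birc5: ggcgtggggcGGGACTTTCCcggctcgcct
Pgk1: cccctagtcaGGAAGTTCCCccccgccccg
Cxcl1 window: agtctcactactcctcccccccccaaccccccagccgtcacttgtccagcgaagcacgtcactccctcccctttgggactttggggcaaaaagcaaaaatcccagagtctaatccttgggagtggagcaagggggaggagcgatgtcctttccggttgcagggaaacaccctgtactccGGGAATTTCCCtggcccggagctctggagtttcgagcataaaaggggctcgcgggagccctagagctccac

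Cxcl1 was at 63.7, 49.0, 25.6, 14.6 and 8.92 CPM in mice 1 to 5 under LP 3M and at 1.63, 2.79, 1.12, 0.532 and 0.228 CPM under LP PIC. The groups lay apart, with a difference of 4.63 ± 0.57 (SE, edgeR adjusted p = 4.28e-06). Cxcl2 was at 525, 415, 220, 199 and 108 CPM under LP 3M and at 24.8, 45.5, 14.8, 12.1 and 12.7 under LP PIC, also without overlap (3.74 ± 0.46, edgeR adjusted p = 4.14e-06). Mice 1 and 2 had the highest levels of both genes under either formulation. Cxcl3 was 10.8-fold higher in LP 3M, but its groups overlapped, and without mouse 1 the log2 difference went from 3.41 to 2.71. Of the 8 tested monocyte-attracting chemokines 4 were higher in LP 3M and 1, Ccl8, in LP PIC (median 1.17). Ccl2 and Ccl7, both ligands of CCR2, were 8.1- and 19.1-fold higher in LP 3M with no overlap, and Ccl3, which also attracts monocytes, 4.56-fold higher. Ccl2 stood at 630, 661, 282, 346 and 135 CPM under LP 3M and at 60.2, 58.2, 44.4, 59.7 and 31.0 under LP PIC. Ccl8 went the other way, at 4.95 ± 3.35 CPM in LP PIC and 1.25 ± 0.934 in LP 3M, and its call was lost without mouse 4 (adjusted p = 0.0799). Among chemokine receptors, Cxcr4, the receptor of CXCL12, was 5.12-fold and Ccrl2, a chemerin-binding receptor, 4.79-fold higher in LP PIC. Ccr7, which guides cells to lymph nodes, was 9.3-fold higher in LP PIC at a low level (2.47 ± 2.14 CPM), and its log2 difference went from -3.20 to -2.42 without mouse 4.

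**Figure D3:**
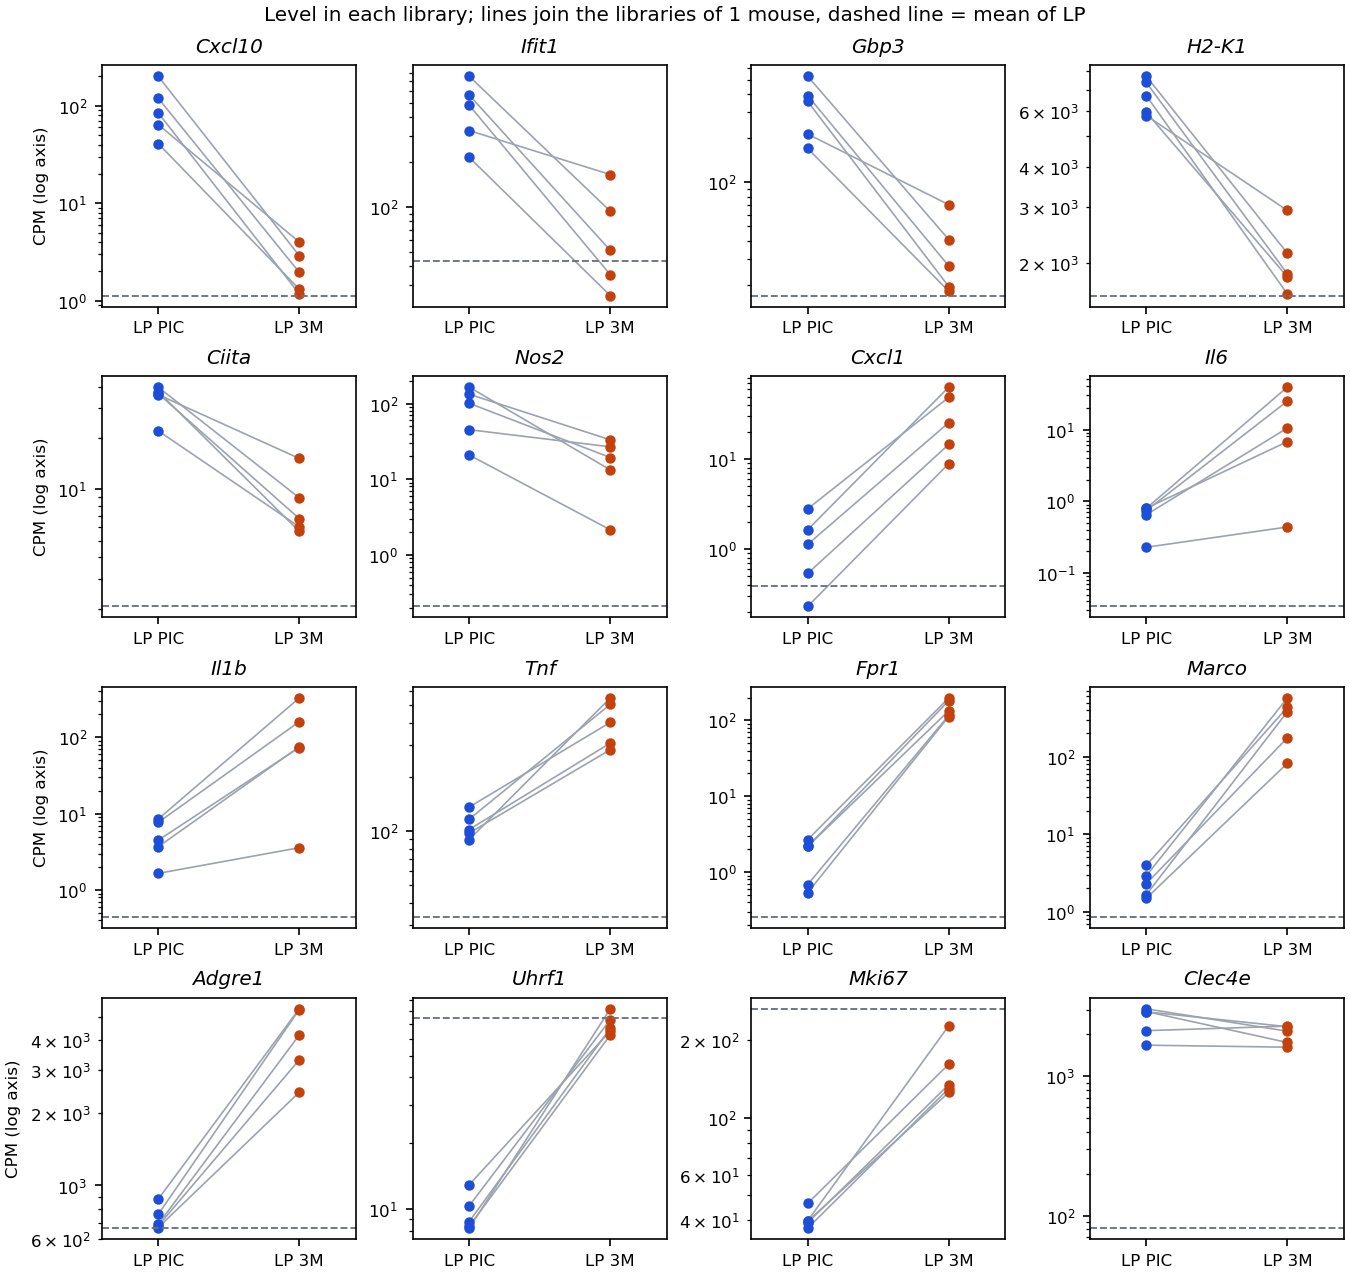
CPM of 16 genes in the 10 libraries on log axes, with LP PIC at the left and LP 3M at the right of each panel. Lines join the libraries of 1 mouse, and the dashed line marks the mean of the 5 LP libraries. Cxcl10 falls from LP PIC to LP 3M in every mouse, whereas Il6 and Il1b rise steeply in 4 mice and little in mouse 5, and Clec4e is high in both groups.

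Inflammatory cytokines split between the formulations. Of 17 tested members 7 were higher in LP 3M, 4 in LP PIC and 6 were not called (median 0.64). Tnf, which encodes tumour necrosis factor, was at 506, 283, 549, 402 and 308 CPM in LP 3M and at 117, 97.6, 89.8, 136 and 102 CPM in LP PIC. No values overlapped and the difference was 1.92 ± 0.19 (SE, edgeR adjusted p = 4e-07). Il6 was at 39.1, 24.9, 10.5, 6.77 and 0.437 CPM in LP 3M and at 0.795, 0.740, 0.647, 0.799 and 0.228 CPM in LP PIC (4.62 ± 0.81, edgeR adjusted p = 0.000156). Il1b was at 328, 160, 73.4, 75.2 and 3.58 CPM in LP 3M and at 8.5, 7.68, 4.49, 3.68 and 1.65 CPM in LP PIC (4.60 ± 0.86, edgeR adjusted p = 0.000301). In both genes LP 3M mouse 5 lay among the LP PIC values, while in Tnf it did not. Il1a was 5.86-fold higher in LP 3M with the same overlap. The cytokines higher in LP PIC were Il27, Il18, Il15 and Tnfsf10. Il15, which supports NK cells and memory T cells, was at 47.3, 38.3, 25.6, 65.1 and 21.5 CPM in LP PIC and at 6.61, 6.66, 8.98, 8.31 and 5.60 CPM in LP 3M (-2.45 ± 0.30, edgeR adjusted p = 3.87e-06). Il12b, the p40 chain of interleukins 12 and 23, was at 1.94 ± 1.68 and 1.22 ± 0.831 CPM and was not called (95% interval of the log2 difference from -0.73 to 2.01).

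The list of anti-inflammatory cytokines and cytokine antagonists, which also holds receptors, leaned to LP 3M. Of 9 tested members 6 were higher in LP 3M and 1 in LP PIC (median 0.53). The 6 were the cytokines Il10 and Tgfb1, the inhibitor Socs3 and the receptors Tnfrsf1b, Il4ra and Il10ra. The antagonist Il1rn and the receptor chain Il1rap were not called. Il10, the main macrophage-derived inhibitory cytokine, was at 11.8, 8.26, 4.18, 6.63 and 0.787 CPM in LP 3M and at 0.586, 1.27, 0.173, 1.02 and 0.399 CPM in LP PIC (3.16 ± 0.84, edgeR adjusted p = 0.00512), with LP 3M mouse 5 inside the LP PIC range. Socs3, an inhibitor of interleukin 6 signalling, was 13.1-fold higher in LP 3M with no overlap. Il18bp, the decoy that neutralises interleukin 18, was the exception, at 125 ± 53.6 CPM in LP PIC and 16.8 ± 9.11 in LP 3M, the same direction as Il18 itself. Irak3, a kinase-dead brake on Toll-like receptor signalling, was at 286, 232, 232, 261 and 164 CPM in LP 3M and at 53.7, 54.8, 52.9, 54.4 and 53.5 CPM in LP PIC. It was 4.36-fold higher in LP 3M (edgeR adjusted p = 1.14e-08). Zc3h12a, the RNase Regnase-1 that degrades cytokine mRNA, was at 213 ± 40.5 and 41.2 ± 3.71 CPM. Nfkbiz, the nuclear IkB-zeta needed for Il6 transcription, was at 251, 181, 189, 241 and 94.6 CPM in LP 3M and at 24.2, 25.7, 18.7, 24.7 and 22.9 CPM in LP PIC (3.04 ± 0.26, edgeR adjusted p = 1.86e-07). In all 3 of these genes LP 3M mouse 5 was the lowest of its group but still above every LP PIC library.

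The NF-kB list as a whole did not lean one way. Of 28 tested subunits, regulators and targets 10 were higher in LP 3M, 8 in LP PIC and 10 not called (median 0.11), and against LP their median was 1.4 in LP 3M and 1.27 in LP PIC. The count of 8 became 5 without mouse 4, without mouse 5 or without LP 3M mouse 5. Rela, the p65 subunit, was 1.39-fold higher in LP PIC with a narrow spread (179 ± 7.90 against 129 ± 8.03 CPM, edgeR adjusted p = 9.61e-06). Sod2, a mitochondrial antioxidant enzyme induced by NF-kB, was 1.84-fold higher in LP 3M with overlapping groups. Among Toll-like receptor signalling genes, 4 of 16 were higher in LP 3M and 5 in LP PIC, the latter only 2 without mouse 1 or without mouse 2. Traf6, the ubiquitin ligase downstream of MyD88, was 1.76-fold higher in LP PIC, and Irak4, the kinase upstream of it, 1.28-fold higher in LP 3M. Myc, which drives growth, was 5.17-fold higher in LP 3M (47.9 ± 9.78 against 9.26 ± 5.22 CPM, edgeR adjusted p = 1.48e-05).

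Sensors of nucleic acids leaned to LP PIC. Of 12 tested cytosolic sensors 8 were higher in LP PIC and none in LP 3M (median -0.87). Aim2, the cytosolic DNA sensor that forms an inflammasome, was at 62.9 ± 13.6 CPM in LP PIC and 31.6 ± 3.86 in LP 3M. Ifi205 and Pyhin1, of the same family, were 6.56- and 4.71-fold higher in LP PIC, and the close similarity within this family makes their separate counts uncertain. Of 13 Toll-like receptors and co-receptors 2 were higher in each group and 9 not called (30.8% called, against 47.1% of all tested genes). The LP PIC count was 4 with the replicate block over the 20 libraries, 4 without mouse 5 and 5 without LP PIC mouse 5. Tlr3, the receptor of double-stranded RNA, was at 51.3, 40.7, 34.9, 56.7 and 27.4 CPM in LP PIC and at 14.1, 12.3, 20.6, 17.0 and 16.4 CPM in LP 3M, with no overlap (-1.39 ± 0.21, edgeR adjusted p = 2.83e-05). Tlr7, the receptor of single-stranded RNA, was 1.34-fold higher in LP PIC with overlap. Tlr1 and Cd14, which take part in lipopeptide and endotoxin recognition, were 3.04- and 1.9-fold higher in LP 3M. Tlr2 was at 375 ± 45.3 CPM in LP 3M and 523 ± 88.9 in LP PIC and was not called (edgeR adjusted p = 0.0614), though it was with the replicate block (0.045). Nlrp3, the inflammasome sensor, was at 149, 136, 160, 140 and 127 CPM in LP 3M and at 84.0, 75.2, 70.0, 76.8 and 65.4 CPM in LP PIC (0.94 ± 0.11, edgeR adjusted p = 2.66e-06). Casp4 and Gsdmd, which act in lytic cell death, were 1.7- and 1.66-fold higher in LP PIC. Of 20 inflammasome genes 3 were higher in LP 3M and 8 in LP PIC.

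Surface receptors for bacteria and debris included some of the largest differences in favour of LP 3M. Marco, a scavenger receptor that binds bacteria and particles (chromosome 1, 120474538 to 120505024), was at 572, 381, 175, 433 and 82.1 CPM in LP 3M and at 2.89, 1.64, 2.29, 3.95 and 1.48 CPM in LP PIC. It was 134-fold higher in LP 3M (7.05 ± 0.67, edgeR adjusted p = 3.24e-07), against an LP mean of 0.842 CPM. Fpr1, the receptor for bacterial formyl peptides, was at 134, 112, 197, 181 and 116 CPM in LP 3M and at 2.18, 0.534, 2.68, 2.17 and 0.684 CPM in LP PIC (6.47 ± 0.42, edgeR adjusted p = 1.12e-08). Fpr2, its paralog, was 4.28-fold higher in LP 3M, and C5ar1, the complement C5a receptor, 3.48-fold. Of 9 tested chemoattractant receptors 6 were higher in LP 3M and 1, Ptafr, the receptor of platelet-activating factor, in LP PIC. Among 18 C-type lectin and scavenger receptors 7 were higher in LP 3M and 2 in LP PIC, the latter 1 without mouse 1, 2 or 3 and none without mouse 4. The share of that list called, 50%, was near the 47.1% of all tested genes. Clec4a2, an inhibitory lectin, was 9.44-fold higher in LP 3M and Cd36, a lipid scavenger receptor, 2.76-fold. Clec7a, the beta-glucan receptor Dectin-1, was 2.18-fold higher in LP PIC, a call lost without mouse 3 (adjusted p = 0.0707) or mouse 4 (0.0532). Siglece, an inhibitory sialic acid receptor, was 27.1-fold higher in LP 3M.

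In the main fit 38.7% of the macrophage identity list was called, against 47.1% of all tested genes. Of 31 tested members 8 were higher in LP 3M (5 without mouse 4), 4 in LP PIC and 19 were not called (median -0.08). The LP PIC count was 8 or 9 with the replicate block, 1 without mouse 1 or 4, 2 without mouse 2 or 3 and 7 without LP 3M mouse 5. Adgre1, which encodes the macrophage marker F4/80, was at 5396, 5357, 3316, 4202 and 2434 CPM in LP 3M and at 877, 759, 680, 691 and 669 CPM in LP PIC. It was 5.63-fold higher in LP 3M (2.49 ± 0.22, edgeR adjusted p = 1.82e-07), and LP PIC was near the LP mean of 665 CPM. Maf, a transcription factor of resident macrophages, was 3.81-fold higher in LP 3M. Cd68, a lysosomal glycoprotein used as the same kind of marker, was 1.54-fold higher in LP PIC. Lyz2, the lysozyme gene, was 1.51-fold higher in LP 3M with overlap (edgeR adjusted p = 0.0419). Its call was lost with plain library totals, with no filter on low counts, and without mice 1, 2, 3 or 4 or LP 3M mouse 5 (adjusted p from 0.0614 to 0.16). Of 12 alternative activation genes 2 were higher in LP 3M and 3 in LP PIC (5 with the replicate block over the 10 libraries), the former 1 without mouse 2, 3 or 4 and none without mouse 1 or LP PIC mouse 5. In the main fit 41.7% of that list was called, again below the share of all tested genes. Mrc1, the mannose receptor, was at 61.7 ± 33.3 and 43.9 ± 24.8 CPM and was not called (edgeR adjusted p = 0.482). It was higher in LP 3M in 5 of 5 mice, and the adjusted p was 0.00618 with the replicate block over the 10 libraries.

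Of 10 tested genes of arginine, nitric oxide and itaconate metabolism 4 were higher in LP PIC and 2 in LP 3M, and of 11 complement genes 3 and 2. The shares called were 60% and 45.5%, against 47.1% of all tested genes. Nos2, the inducible nitric oxide synthase, was at 133, 101, 45.1, 165 and 20.9 CPM in LP PIC and at 33.1, 19.3, 26.8, 13.3 and 2.14 CPM in LP 3M, against 0.208 CPM in LP. LP 3M mice 1 and 3 were above LP PIC mouse 5, so the groups overlapped (-2.30 ± 0.56, edgeR adjusted p = 0.00249). Cfb, the factor B of the alternative complement pathway, was at 1477 ± 650 CPM in LP PIC and 304 ± 116 in LP 3M, and Cfp, the properdin that stabilises the same convertase, was 2.45-fold higher in LP 3M. Arg1, the arginase that competes with nitric oxide synthase for arginine, had 323 counts in LP 3M, mostly from mice 1 and 2 (9.44 and 4.46 CPM), and 7 in LP PIC. Its call (edgeR adjusted p = 0.0261) was lost without mouse 1 (0.121), without LP PIC mouse 5 (0.0507) and with no filter on low counts (0.0541). Kynu, of tryptophan breakdown, was 12.2-fold higher in LP PIC, and Cd38, an NAD-consuming ectoenzyme, 5.63-fold higher in LP 3M with overlap. Irg1 (Acod1), which makes itaconate, was at 890 ± 168 CPM in LP 3M and 521 ± 136 in LP PIC. Its groups did not overlap, yet the gene was not called (edgeR adjusted p = 0.06, and 0.00158 with the replicate block over the 10 libraries).

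Matrix proteases leaned to LP 3M, some with a wide spread over mice. Of 18 tested matrix proteases and plasminogen genes 10 were higher in LP 3M and 1, Plat, in LP PIC (median 0.84), the latter 2 or 3 with the replicate block and none without mouse 2 or 4. Mmp9, a gelatinase, was at 666, 584, 12.5, 40.0 and 6.25 CPM in LP 3M and at 10.4, 16.7, 1.64, 8.16 and 1.88 CPM in LP PIC (5.06 ± 1.31, edgeR adjusted p = 0.00421). LP 3M mice 3 and 5 fell within the LP PIC range, although each was above the LP PIC library of the same mouse. Mmp12, the macrophage elastase, was 3.29-fold higher in LP 3M without overlap, and LP stood at 2620 CPM against 2004 ± 366 in LP 3M and 609 ± 469 in LP PIC. Serpinb2, an inhibitor of plasminogen activators, was at 95.2 ± 121 and 26.0 ± 28.6 CPM and was not called (edgeR adjusted p = 0.175, and 0.0302 with the replicate block over the 20 libraries). In prostaglandin and leukotriene synthesis 4 of 14 genes were higher in LP 3M, 1 in LP PIC and 9 not called, against 24.4% and 22.7% of all tested genes. Ptgs2, the inducible cyclooxygenase, was 4.34-fold higher in LP 3M with overlap. Ltc4s, the leukotriene C4 synthase, was 3.59-fold higher in LP PIC. Of 11 acute-phase and antimicrobial genes 4 were higher in LP 3M, 2 in LP PIC and 5 not called. Lcn2, an iron-sequestering lipocalin, was 7.29-fold higher in LP 3M, a call lost without mouse 1 (adjusted p = 0.0503). Orm1 went the other way, at 37.2 ± 7.55 CPM in LP PIC and 7.39 ± 2.08 in LP 3M.

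Of 18 integrin and adhesion genes 7 were higher in LP 3M, 3 in LP PIC (5 with the replicate block over the 10 libraries) and 8 not called. Itga9, an integrin alpha chain, was at 52.8, 39.0, 25.3, 42.3 and 8.0 CPM in LP 3M and between 0.863 and 1.72 CPM in LP PIC (4.61 ± 0.53, edgeR adjusted p = 2.17e-06). Its ligand Vcam1 was at 57.5, 62.7, 7.94, 67.1 and 10.3 CPM in LP PIC and between 0.656 and 2.88 CPM in LP 3M (-4.77 ± 0.58, edgeR adjusted p = 3.91e-06). In LP PIC, mice 3 and 5 were low for Vcam1, as they were for many interferon-induced genes. Some actin genes were among those with the largest differences in CPM, for which they are named. Actb, which encodes beta-actin and is often used as a reference gene, was at 6534 ± 1389 CPM in LP 3M and 2293 ± 268 in LP PIC, with an LP mean of 3742. Tmsb4x, which binds actin monomers, was 3.47-fold and Flna, which crosslinks actin filaments, 2.99-fold higher in LP 3M.

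Genes of cell division were higher in LP 3M almost without exception. All 28 tested mitosis genes and 27 of 28 DNA replication genes were called higher in LP 3M and none higher in LP PIC, with medians of 2.15 and 1.70. Against LP, the mitosis median was -0.76 in LP 3M and -3.0 in LP PIC, and the replication median -0.27 and -1.88, so both formulations lay below LP and LP PIC further. Uhrf1, which copies DNA methylation at replication forks, was at 62.4, 66.9, 65.2, 82.2 and 73.4 CPM in LP 3M and at 8.37, 8.79, 12.9, 8.21 and 10.4 CPM in LP PIC, against an LP mean of 74.3 (2.85 ± 0.23, edgeR adjusted p = 1.01e-07). Mki67, the marker of cycling cells, was at 125, 134, 130, 161 and 227 CPM in LP 3M and at 39.7, 39.2, 37.3, 46.6 and 39.8 CPM in LP PIC (1.94 ± 0.19, edgeR adjusted p = 4.03e-07). The groups were far apart in both genes, and LP 3M mouse 5, lowest of its group for Il6 and Il1b, was the highest for Mki67. Bub1, a spindle checkpoint kinase, was 7.6-fold and Plk1, a mitotic kinase, 6.12-fold higher in LP 3M. Mcm2, of the replicative helicase, was at 50.2 ± 7.07 and 14.7 ± 2.74 CPM. In the G1 list 8 of 17 were higher in LP 3M (5 without mouse 4) and 3 in LP PIC. Ccnd1, cyclin D1, was 4.04-fold higher in LP 3M, and Cdkn2c, a cyclin kinase inhibitor, 2.62-fold. Gadd45a, a stress-induced growth arrest gene, was 3.87-fold higher in LP PIC. Among BCL2 family genes, Bbc3, which encodes the death-promoting PUMA, was 3.09-fold higher in LP PIC, where 6 of 13 members were called higher and 3 in LP 3M.

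**Figure D4:**
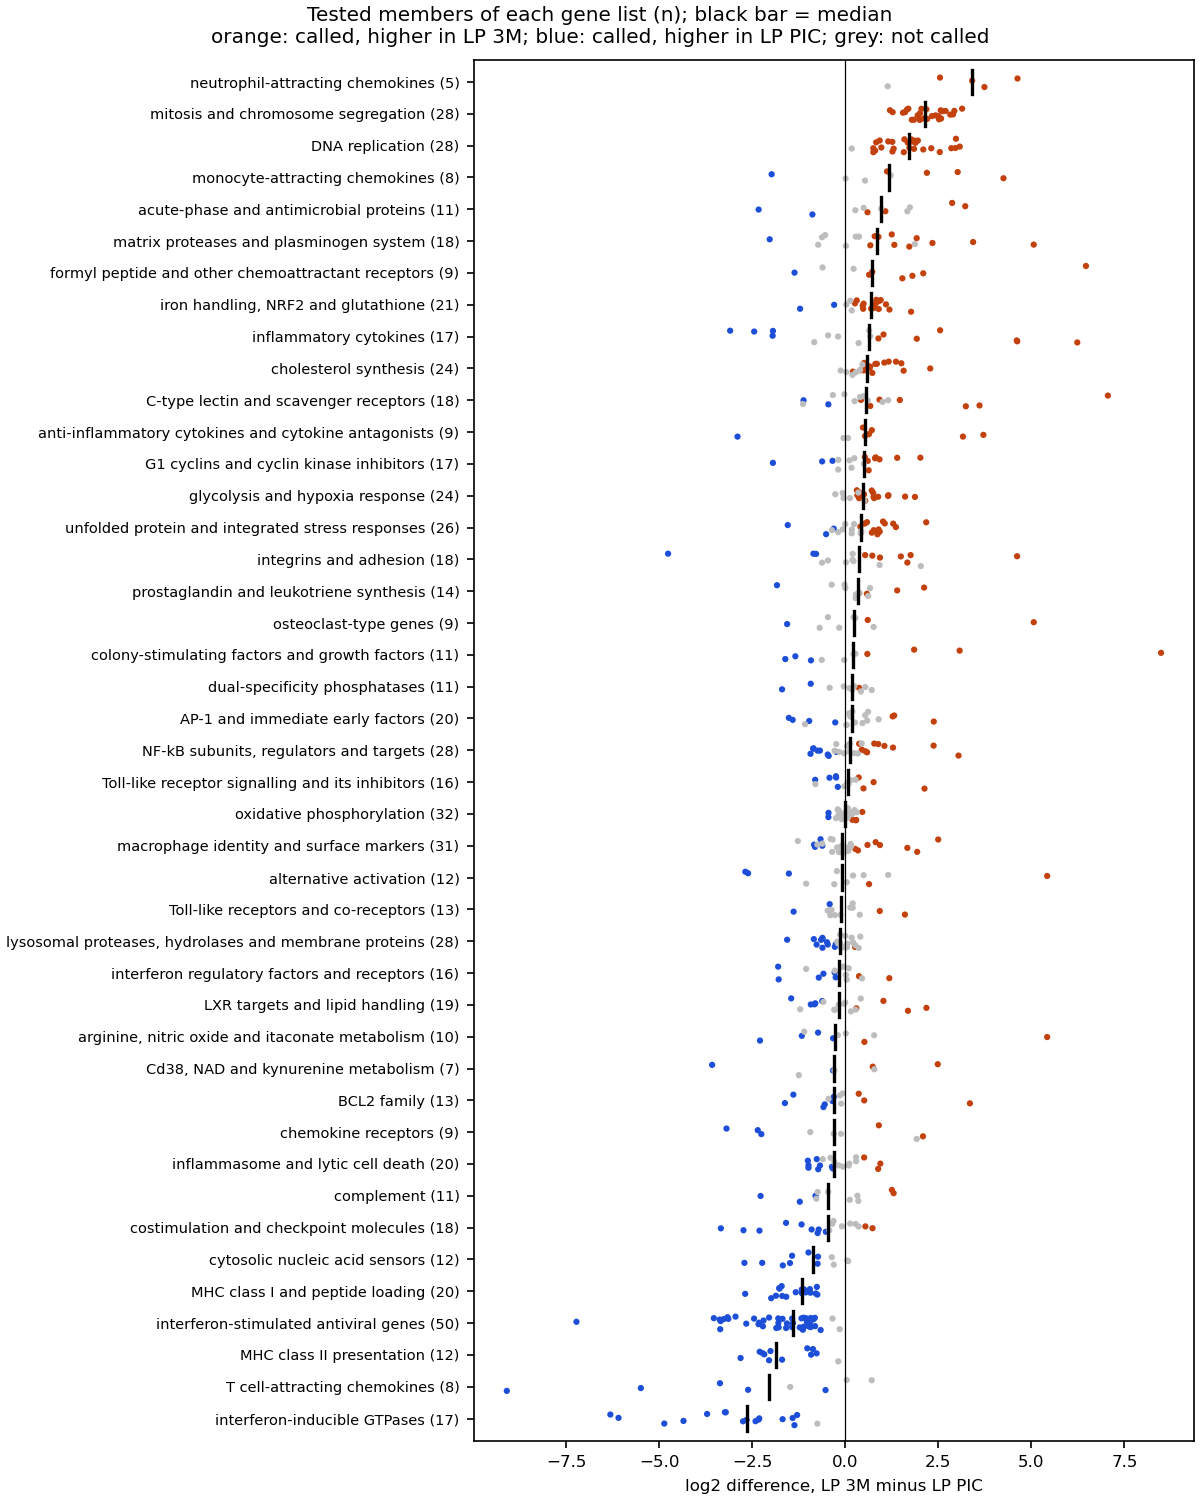
Log2 difference LP 3M minus LP PIC of every tested member of 43 gene lists, with the number of members in brackets and a black bar at the median. Orange members were called higher in LP 3M, blue higher in LP PIC, and grey were not called. The lists run from neutrophil-attracting chemokines (3.41) at the top to interferon-inducible GTPases (-2.66) at the bottom.

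Cholesterol synthesis leaned to LP 3M. In cholesterol synthesis 18 of 24 tested genes were higher in LP 3M and none in LP PIC (median 0.58), with medians against LP of 0.37 in LP 3M and -0.29 in LP PIC. Srebf2, the transcription factor of this pathway, was at 166, 163, 171, 181 and 170 CPM in LP 3M and at 86.9, 86.4, 124, 61.1 and 129 CPM in LP PIC (0.80 ± 0.15, edgeR adjusted p = 0.000224). The LP 3M values were close together and the LP PIC values spread, lowest in mouse 4. Stard4, a cholesterol carrier, was 2.95-fold and Hsd17b7, an enzyme of the pathway, 2.23-fold higher in LP 3M. Abcg1, which exports cholesterol, was at 207, 210, 170, 200 and 160 CPM in LP PIC, near its LP mean of 179, and at 74.4, 68.1, 69.5, 69.1 and 63.6 CPM in LP 3M (-1.46 ± 0.09, edgeR adjusted p = 4.21e-09). Of 19 LXR targets and lipid genes 4 were higher in LP 3M and 5 in LP PIC, so Abcg1 did not stand for that list. Its share called, 47.4%, was near the 47.1% of all tested genes.

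In glycolysis and the hypoxia response 18 of 24 genes were higher in LP 3M and none in LP PIC (median 0.47, and 1 in LP PIC with the replicate block or without mouse 3). Pgk1, a glycolytic kinase, was at 582 ± 100 CPM in LP 3M and 263 ± 25.5 in LP PIC. Pdk1, which inhibits pyruvate dehydrogenase, was 2.23-fold higher in LP 3M. Gapdh, another frequent reference gene, was 1.69-fold higher in LP 3M (edgeR adjusted p = 2.71e-05). Hif1a, the hypoxia factor, was at 159 ± 17.6 and 167 ± 26.9 CPM and was not called. Of 32 oxidative phosphorylation genes 26 were not called (median -0.01). Iron handling, NRF2 and glutathione genes were higher in LP 3M in 16 of 21 cases and higher in LP PIC in 2 (median 0.69). The count of 2 was 1 without mouse 1, 2, 3, 4, LP 3M mouse 5 or LP PIC mouse 5, and none without mouse 5 in both. Slc11a2, an iron transporter, was at 249, 255, 248, 254 and 255 CPM in LP 3M and at 131, 129, 138, 137 and 141 CPM in LP PIC (0.90 ± 0.08, edgeR adjusted p = 1.01e-07). Neither group varied much over the mice. Txnrd1, a target of NRF2, was 1.93-fold higher in LP 3M. Hmox1, heme oxygenase, was 1.78-fold higher in LP 3M, a call lost without mouse 1 (adjusted p = 0.0625). Slc40a1, the iron exporter ferroportin, was 2.33-fold higher in LP PIC, a call lost without mouse 1 (0.0753) or mouse 5 (0.0639).

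Chaperones and lysosomal genes went apart. In the unfolded protein and integrated stress list 14 of 26 genes were higher in LP 3M and 3 in LP PIC (median 0.42), the latter 5 with the replicate block over the 20 libraries. Herpud1, of endoplasmic reticulum protein degradation, was 2.56-fold higher in LP 3M (50.6 ± 5.03 against 19.8 ± 2.19 CPM), and Dnajc3, a chaperone partner, 1.69-fold. Ddit3, which encodes the stress factor CHOP, was at 111, 105, 89.8, 153 and 99.9 CPM in LP PIC and at 38.5, 41.4, 40.8, 37.7 and 32.4 CPM in LP 3M (-1.55 ± 0.13, edgeR adjusted p = 8.85e-08). The groups were well apart in the direction opposite to most of the list. Of 28 lysosomal genes 11 were higher in LP PIC and 1, Tfe3, in LP 3M (42.9% called, against 47.1% of all tested genes). Tfe3 was not called without mouse 4 (adjusted p = 0.109), and the LP 3M count was 2 or 3 with the replicate block and 2 without mouse 3, LP 3M mouse 5 or LP PIC mouse 5. Npc2, a lysosomal cholesterol carrier, was 1.8-fold and Atp6v0d2, a proton pump subunit, 2.96-fold higher in LP PIC.

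Genes without a place in these lists were among the largest differences toward LP 3M. Slc13a3, a transporter of dicarboxylates (chromosome 2, 165405028 to 165473230), was at 812, 535, 167, 505 and 55.2 CPM in LP 3M and at 1.17, 0.863, 0.259, 1.24 and 0.855 CPM in LP PIC. That is 472-fold higher in LP 3M (8.87 ± 0.92, edgeR adjusted p = 7.68e-07), against 1.84 CPM in LP. Nhs and Raver2 had no count in any LP PIC library and 673 and 675 counts in LP 3M. With a floor of 3 counts over the group, the ratio of pooled CPM was at least 229 for each. That bound leaves out the spread over mice. Raver2 was at 13.0, 9.71, 1.83, 6.07 and 0.219 CPM in mice 1 to 5 under LP 3M. The interval of its fitted log2 difference ran from 5.64 to 14.4, and that of Nhs from 7.81 to 12.3. Raver2 also overlaps Jak1 on the opposite strand, so the 2 genes may share reads. Csf3, the growth factor of neutrophils, had 583 counts in LP 3M and 1 in LP PIC, a ratio of pooled CPM of 594 with a counting interval from 106 to 23501. It was at 13.0, 7.65, 3.53, 1.82 and 0.525 CPM in mice 1 to 5, and its fitted log2 difference of 8.48 went to 7.60 without mouse 1 and 9.94 without mouse 3. Zfp811, a zinc finger gene, was at 22.8 ± 6.57 and 0.318 ± 0.245 CPM (its log2 difference went from 6.22 to 6.87 without mouse 5), and Lancl3 at 23.1 ± 8.37 and 0.222 ± 0.172 CPM. Edn1, the vasoconstrictor endothelin 1, was 28.7-fold higher in LP 3M. Gja1, the gap junction protein connexin 43, was 33.9-fold higher (log2 difference 5.06, 4.30 without mouse 1 and 5.69 without mouse 3). The smallest p toward LP 3M belonged to Ppfibp2, a liprin scaffold gene, at 136, 132, 160, 165 and 112 CPM against 32.8, 26.0, 34.3, 36.7 and 27.1 CPM (2.17 ± 0.13, edgeR adjusted p = 4.21e-09). Toward LP PIC, Tmem140 was 5.4-fold, Slc29a3, a lysosomal nucleoside transporter, 2.76-fold and Plekhn1 2.28-fold higher, each in 5 of 5 mice.

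Some genes that stood above LP under both formulations did not differ detectably between them. Clec4e, the lectin Mincle, was at 2102, 2264, 2286, 1745 and 1615 CPM in LP 3M and at 3040, 2896, 2121, 2909 and 1669 CPM in LP PIC, against an LP mean of 81.4. Its groups overlapped, and the 95% interval of the log2 difference ran from -0.91 to 0.24. Hif1a had a narrower interval, from -0.29 to 0.14, with 74.1 CPM in LP. Abca1, a lipid exporter and LXR target, stood at 256 ± 106 and 231 ± 77.4 CPM against 76.2 in LP (interval -0.37 to 0.66). Il1rn, the interleukin 1 receptor antagonist, was at 510 ± 398 and 528 ± 259 CPM against 135 in LP. With the mice this far apart, its interval ran from -1.21 to 1.11, and a difference of that size could not be seen.

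The size of the difference depended on the mouse, and not in the same way for each group of genes. Interferon-inducible GTPases had a median log2 difference of -3.77, -3.62, -1.05, -2.80 and -2.30 in mice 1 to 5, and antiviral genes of -1.93, -2.01, -0.53, -1.49 and -1.69. Mouse 3 was nearest to 0 for both, and also for class I (-0.63 against -1.57 to -1.28 in the others) and class II (-1.22 against -2.05 to -1.71). The neutrophil chemokines were highest in mice 1 and 2 (4.34 and 3.34) and lower in mice 3 to 5 (1.64 to 2.15). Matrix proteases ran from 0.26 in mouse 5 to 1.21 in mouse 1. Mitosis genes ran from 1.67 in mouse 3 to 2.66 in mouse 5, and DNA replication from 1.38 to 1.86. All 5 mice had the same sign for each of these lists. Within LP 3M, the median SD of log2 CPM over the mice was 0.66 for antiviral genes and 0.84 for inflammatory cytokines, against 0.17 over all tested genes. In LP PIC the same medians were 0.38, 0.55 and 0.18. The labels give no batch for the mice beyond their identity, and what sets mouse 3 or mouse 5 apart was not tested.

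**Figure D5:**
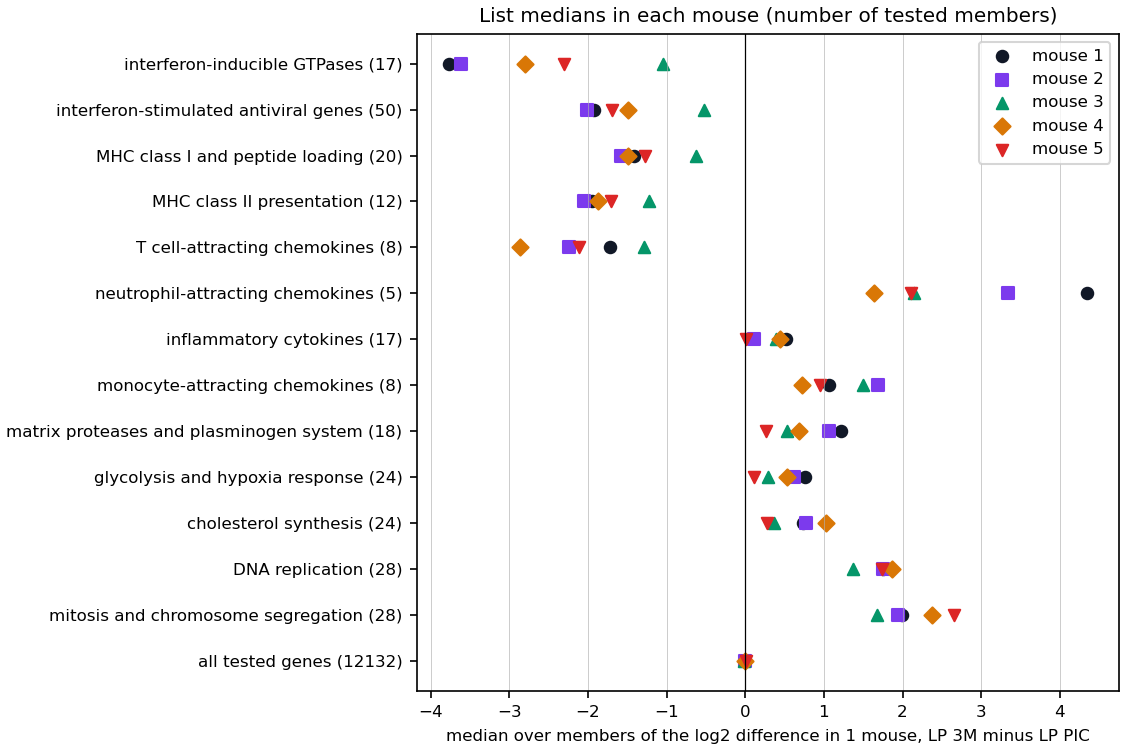
Median over the tested members of 13 gene lists, and of all tested genes, of the log2 difference LP 3M minus LP PIC within each mouse (1 symbol per mouse). Mouse 3 lies nearest to 0 in the interferon and MHC lists, mice 1 and 2 are highest in neutrophil chemokines, and the median of all 12132 genes stays between -0.01 and 0.01 in each mouse.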

How the data were processed

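RNA of bone marrow-derived macrophages was measured by sequencing, and the authors deposited 1 table per library of whole-number read counts by gene symbol, without normalisation. The submitters' processing notes list genome build GRCm38 and the tools STAR 2.7.11b, HTSeq 0.13.5, FastQC 0.11.1 and DESeq2 1.44.0, without their roles. Which annotation was counted, and whether by strand, is not given in the sources used here, so a gene and an overlapping one on the other strand may share reads. Entries that name no gene stayed out of library sizes and tests: reads outside genes (5.94 to 7.91% in the 10 libraries) and reads shared by several genes (1.19 to 1.90%).

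Counts were analysed with edgeR 4.0.16 and limma 3.58.1 in R 4.3.3, with DESeq2 1.42.0 as an alternative, and the other steps ran under Python 3.11.15 (scipy 1.17.1, numpy 2.4.6, pandas 2.3.3, and matplotlib 3.10.9 for drawing). A filter by filterByExpr (minimum count 10, minimum total 15) left 12132 genes with 99.969% of the counts. One quasi-likelihood model with TMM scaling, robust dispersion and a mean per condition was fitted to all 20 libraries, so that the conditions share 1 estimate of the spread, and LP 3M minus LP PIC was tested two-sided with Benjamini-Hochberg adjustment. The biological coefficient of variation was 0.194. SEs are those implied by the F-test, and ± on CPM is the SD over 5 mice. On simulated counts for this comparison over 12132 genes, the test recovered 40% of 1.5-fold and 86% of 2-fold changes, and 8 of 171 calls were false. The simulation changed only a small part of the genes, evenly in both directions. It took the spread from its fitted trend and held no mouse effect. These shares therefore need not hold for the real libraries. Floors and counting intervals cover counting error only. Sums over marker lists use plain library totals and exact two-sided permutation tests. The permutation tests, also those on reads shared by several genes, were unpaired and did not use the mouse identity. Mice differ beyond sampling noise: the chi-squared per degree of freedom between libraries of a group was 9.85 to 117.

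Same-numbered libraries come from the same mouse, per the mouse identities in the labels. Their deviations from the group means correlated at 0.177 to 0.513. Those of LP 3M and LP PIC libraries from different mice correlated at -0.353 to 0.252, so the ranges overlapped. Each library still correlated most with that of its own mouse under the other formulation, so the numbers pair the samples. The fit without the mouse as a block is the main one, and the block an alternative.

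Members, gene lists and rules were chosen with earlier results of these data known. The rule names, in each direction, the 12 largest changes at 5 CPM or more with the same direction in 5 of 5 mice, the 6 smallest p and the 6 largest CPM differences. It adds the 4 genes that vary most over mice, up to 3 members of each of 44 lists with the smallest p, 1 member called against the list's direction (that of lowest p), a fixed panel and up to 3 top genes of each marker list. Unnamed gene models (numbered symbols) were left out. Of 799 list genes 728 were tested. Gene positions are from GENCODE M21 on GRCm38. Upstream windows are RefSeq's (GRCm38.p6), and 9292 tested genes had one. The rule chose the windows of Cxcl10, Irf2, Birc5 and Pgk1 for printing, and the GTPase and chemokine sites and the Cxcl1 window were added after values were seen. The mitochondrial quality list was not analysed here, and 1 gene that the rule names is not reported here.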

Additional observations from a re-analysis of the deposited data

Results flagged for a closer look

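For 385 sets of 5 values of named genes, gaps and ranges were taken on the scale of log2(CPM + 0.1). In 14 sets the gap of 1 library to its nearest neighbour exceeded 0.71 of the group's range, the 95% critical share for 5 values. Chance flags about 5% of such sets. Of the 14, 7 concerned LP 3M mouse 5. It was lowest for Ccl4 (70.6 CPM against 170 to 212 in the others, gap share 0.802), Cp, the ferroxidase ceruloplasmin (0.777), Edn1 (1.62 against 16.4 to 22.7 CPM, 0.875), Nhs (0.818) and Zfp811 (0.755), and highest for Cxcr4 (124 against 31.6 to 37.9 CPM, 0.868) and Gadd45a (0.748). All 7 genes were called in the same direction without it. LP 3M mouse 3 was highest for B2m (3586 against 2428 to 2683 CPM, 0.743), and LP 3M mouse 1 lowest for Hpgds, a prostaglandin D synthase (0.788).

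In LP PIC, mouse 5 was lowest for Ciita (22.1 against 35.9 to 39.8 CPM, 0.828). Mouse 4 was lowest for Dnajc3 (0.829) and Vegfa (0.749) and highest for H2-DMa (0.799), and mouse 3 was lowest for Sdhd (0.807).

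Outside the gene counts, reads shared by more than 1 gene made up 1.75% in LP PIC, above 1.24% in LP and 1.26% in LP 3M. LP PIC differed from both (exact two-sided permutation p = 0.00794 for each, the smallest these groups can give). Which genes these reads came from was not tested.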

How the results depend on the processing

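The 4 counts of called genes kept within 1.5 times of their values under all 15 alternatives. Called genes ranged from 4209 (without mouse 4) to 5585 when 1 mouse was left out, against 5712, and those higher in LP 3M from 2171 to 2855, higher in LP PIC from 2038 to 2730, and called at 1 or more on the log2 scale from 1096 to 1418. DESeq2 called 5933, plain library totals 5836 (2426 higher in LP 3M and 3410 in LP PIC), no filter 5451, a filter of 1 CPM in 5 libraries 5604 and the 10 libraries alone 5383. With the replicate block 6440 genes were called over 20 libraries and 5693 over 10, and the block changed no named gene's call beyond Cd80, Irg1, Mrc1, Serpinb2 and Tlr2. Of 209 named genes 187 kept their call, 16 lost it somewhere, 6 gained it and 0 reversed. Of 1320 recomputed list counts 1190 stayed within 1.5 times, and 125 of the 130 others belonged to lists with 5 or fewer such members. The summed neutrophil markers, left-out mice being added after seeing the data, differed by 189 to 328 CPM without mouse 1, 2 or 3, where 4 against 4 gave an exact permutation p = 0.0571, and by 332 and 361 CPM without mouse 4 or 5 (0.0286), against 293 CPM. The cause was not tested. The annotation used for counting and the depth behind genes below about 1 CPM limit what can be said of paralogs and rare transcripts.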
